A study of Mus musculus with 8 samples.

Results

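The FGF-ERK feedback genes described here are 10 genes that respond to or feed the FGF-ERK signalling pathway, *Fgf4*, *Spry2*, *Spry4*, *Spred1*, *Spred2*, *Dusp4*, *Dusp6*, *Etv4*, *Etv5* and *Egr1*. They were picked by symbol, with a single entry per symbol on a main chromosome, and 10 of the 10 were found among 50903 genes. Their mRNA levels were measured by RNA-seq in E14 cells, a mouse embryonic stem cell (ESC) line, in 4 libraries of ESC + F/H-BAZ2Ar WT and 4 of ESC + F/H-BAZ2Ar ΔTAM. Both lines carry a Flag- and HA-tagged *Baz2a* transgene that siRNA against *Baz2a* does not target, and the ΔTAM form lacks the TAM domain, through which BAZ2A binds RNA. All cells grew in N2B27 with LIF and 2i, which combines the MEK inhibitor PD0325901 with the GSK3β inhibitor CHIR99021, and all were transfected with siRNA against *Baz2a* and collected 3 days later. Each line was raised by PiggyBac transposition, puromycin selection and growth of single-cell clones picked by western blot, so a difference between clones and a difference between transgenes cannot be told apart. The promoter that drives the transgene is not given in the sources used here. Nothing in the labels says that the 4 libraries of a line came from separate cultures, and p-values then measure only the spread between these libraries.

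In mouse ESCs, FGF4 made by the cells themselves binds FGF receptors and, through RAS, RAF, MEK and ERK, prepares the cells to leave the naive state. ERK in turn induces proteins that dampen it. Sprouty (SPRY) and SPRED proteins act on the receptor and RAS-RAF steps, and dual-specificity phosphatases (DUSP) remove phosphate from ERK. *Etv4* and *Etv5* encode ETS transcription factors of the PEA3 family, and *Egr1* encodes a zinc finger factor of the immediate early class. All but *Fgf4* are used as readouts of ERK output, which the MEK inhibitor in the medium of both lines is meant to hold low. The comparison of the lines therefore asks how these genes differ under a common block of MEK.

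Between 7.28 M and 7.71 M reads per BAZ2A WT library and between 6.59 M and 8.70 M reads per BAZ2A ΔTAM library were assigned to genes. *Baz2a*, which both lines express from a transgene and from the endogenous gene, had 10.5 ± 0.529 RPKM (SD, n = 4) in BAZ2A WT and 18.3 ± 0.824 RPKM (SD, n = 4) in BAZ2A ΔTAM, a log2 fold change of 0.80 (SE 0.046, adjusted p = 1.3e-05 from limma). Its 2 sources and the TAM deletion cannot be told apart from one value per gene. The deposited RPKM are scaled to library size and to the genomic span of the gene, introns included. Levels of different genes were therefore compared only as exon RPKM, computed from the recovered reads, the reads on genes of the library and the annotated exon length.

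The feedback genes were lower or not distinguishable in BAZ2A ΔTAM, and 0 of them were called higher. By the group means in RPKM, the ligand gene *Fgf4* fell by 29.3%, *Spry2* fell by 20.1% and *Etv5* fell by 11.9%, and for these 3 genes the libraries of the lines did not overlap. *Spry4* and *Dusp4* also passed the test, at very few reads. *Dusp6* pointed down without passing, *Spred1*, *Spred2* and *Etv4* had small differences above 0, and *Egr1* had too few reads for the fit. In limma on log2(RPKM + 0.01) with Benjamini-Hochberg adjustment over 12661 genes, 5 of the 9 tested feedback genes had an adjusted p under 0.05 and a lower level, against 19.1% of all genes tested, and 0 of 9 had a higher level, against 19.3%. The 5 became 3 without BAZ2A WT replicate 2 or 3 or BAZ2A ΔTAM replicate 4, where *Spry4* and *Dusp4* dropped out. By a second rule with the study's cut-offs (a log2 change of 0.58 or more in size and p under 0.05, taken here before adjustment), 1 of 9 was lower, *Spry4*, against 3.82% of all genes, and 0 of 9 were higher, against 3.36%. The BAZ2A ΔTAM libraries lay wholly below the BAZ2A WT libraries for 3 of 9, against 18.7% of all genes, and wholly above for 1 of 9, *Spred1*, against 19.1%. The median log2 fold change of the 9 was -0.32, and that of all genes tested was -0.0035, with 90% of all genes between -0.52 and 0.48. In bulk samples, fewer cells of a type and less RNA per cell cannot be told apart.

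**Figure D1:**
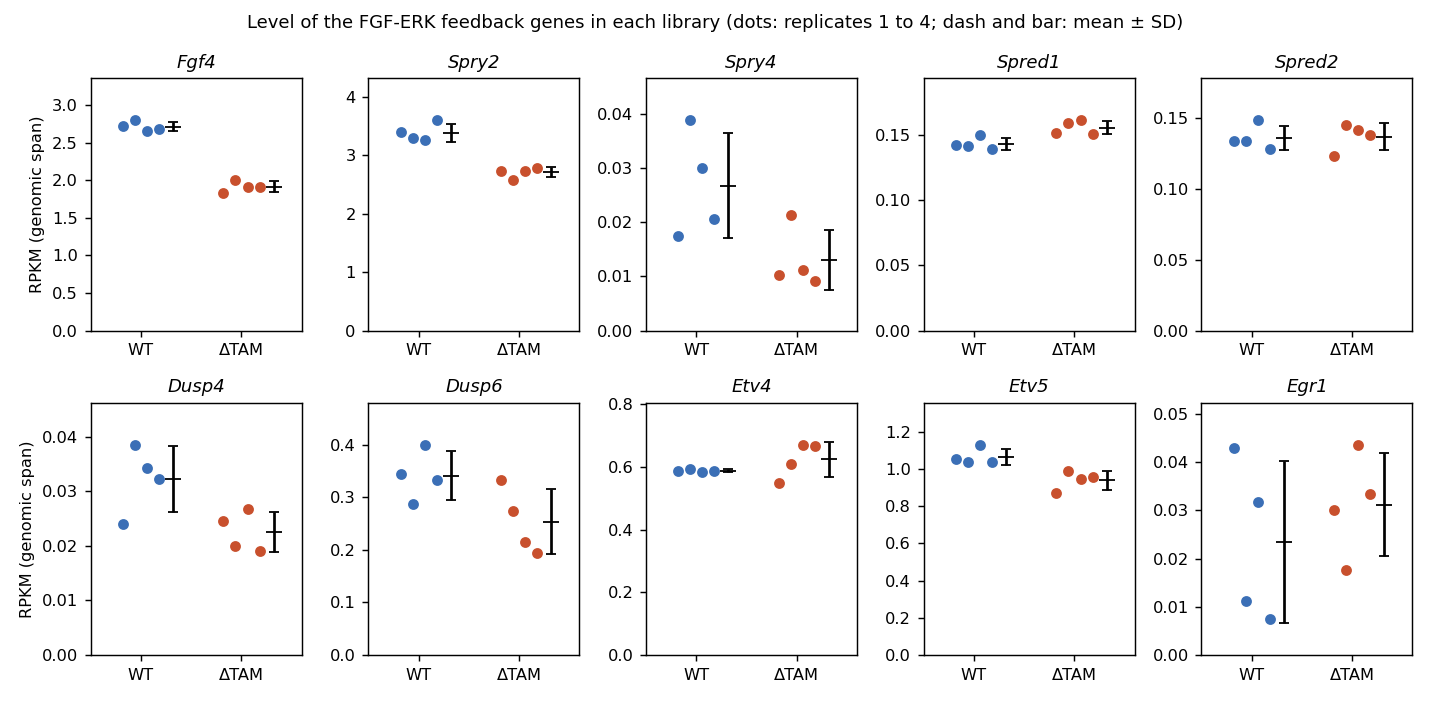
RPKM of the 10 feedback genes (vertical axis from 0, scale differing by gene) in each library of BAZ2A WT (blue) and BAZ2A ΔTAM (red), replicates 1 to 4 from left to right, with the mean ± SD beside them. The red dots of *Fgf4*, *Spry2* and *Etv5* all sit below the blue ones, those of *Etv4* lie on either side of them, and those of *Egr1* mix with them.

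The 10 genes spanned levels from 95.4 exon RPKM for *Etv5* to 0.210 exon RPKM for *Egr1*, as means over all 8 libraries. *Etv5* (83.2 to 108 over libraries) and *Fgf4* (mean 86.7, 69.0 to 105) overlapped in their ranges over all libraries and stood at percentiles 96.8 and 96.3 of 12485 expressed genes. In BAZ2A ΔTAM alone they did not overlap, with *Fgf4* at 69.0 to 74.7 and *Etv5* at 83.2 to 93.7 exon RPKM. *Spry2* followed with 47.6 (40.2 to 56.5). *Etv4* with 20.4 and *Spred2* with 19.6 overlapped, and *Spred1* lay below them with 8.97. *Dusp6* had 2.71, at percentile 27.5. *Dusp4* with 0.843, *Spry4* with 0.419 and *Egr1* with 0.210 each overlapped the next, and they stood at percentiles 9.51, 3.38 and 0.601. The order differed from that of the deposited RPKM because the ratio of span to exon ran from 1.15 for *Egr1* to 21.6 for *Spred2*.

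*Fgf4*, the FGF ligand that ESCs make themselves, lies on the plus strand of chromosome 7 of mm10 from 144847367 to 144865243. Its RPKM in BAZ2A WT replicates 1 to 4 were 2.72, 2.80, 2.65 and 2.69. In BAZ2A ΔTAM they were 1.83, 2.01, 1.92 and 1.92. The highest BAZ2A ΔTAM library was thus below the lowest BAZ2A WT library. The means were 2.71 ± 0.0626 and 1.92 ± 0.0703 RPKM (SD, n = 4), from 2309 to 2576 reads and 1482 to 1989 reads per library. The log2 fold change of *Fgf4* was -0.50 (SE 0.035, 95% interval -0.58 to -0.42, adjusted p = 2.7e-05 from limma). With each library left out in turn it stayed between -0.52 and -0.48, and its adjusted p between 9.3e-05 and 2.1e-04. In exon RPKM, *Fgf4* had a mean of 102 in BAZ2A WT, level with *Etv5* at 102, and of 71.7 in BAZ2A ΔTAM, where *Etv5* had 89.3.

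The Sprouty genes encode inhibitors of receptor tyrosine kinase signalling that ERK activity induces. *Spry2* lies on the minus strand of chromosome 14 from 105891947 to 105896819. Its RPKM were 3.41, 3.30, 3.26 and 3.60 in BAZ2A WT. In BAZ2A ΔTAM they were 2.74, 2.59, 2.73 and 2.78, each below each BAZ2A WT library. With means of 3.39 ± 0.153 and 2.71 ± 0.0848 RPKM (SD, n = 4) and 552 to 905 reads per library, the log2 fold change of *Spry2* was -0.32 (SE 0.040, 95% interval -0.41 to -0.23, adjusted p = 4.3e-04 from limma). It ranged from -0.34 to -0.29 with each library left out.

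*Spry4*, the other Sprouty gene of the set, lies on the minus strand of chromosome 18 from 38586268 to 38601268 and was close to the limit of detection. It had 13, 30, 22 and 16 reads in BAZ2A WT and 7, 14, 9 and 8 reads in BAZ2A ΔTAM. The RPKM were 0.0174, 0.0388, 0.0301 and 0.0207, and then 0.0103, 0.0213, 0.0113 and 0.00918. All BAZ2A ΔTAM libraries but replicate 2 were below the lowest BAZ2A WT library. The log2 fold change of *Spry4* was -0.67 on the log2(RPKM + 0.01) scale (SE 0.21, 95% interval -1.14 to -0.19, adjusted p = 0.0347 from limma), which the pseudocount shrinks. Tested on reads with limma voom it was -1.04 (SE 0.32, adjusted p = 0.0107). The call at an adjusted p under 0.05 was lost without BAZ2A WT replicate 2 or 3 (adjusted p = 0.0764 and 0.0818) and without BAZ2A ΔTAM replicate 1, 3 or 4 (0.0784, 0.0785 and 0.0857), with a fold change in these fits between -0.64 and -0.52.

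The SPRED genes encode relatives of Sprouty that bring neurofibromin to the membrane and so restrain RAS. *Spred1* lies on the plus strand of chromosome 2 from 117121374 to 117182279. Its RPKM were 0.142, 0.142, 0.150 and 0.139 in BAZ2A WT and 0.152, 0.159, 0.161 and 0.151 in BAZ2A ΔTAM. Each BAZ2A ΔTAM library was above each BAZ2A WT library, by small margins, with 418 to 533 reads per library against 430 to 445. *Spred1* thus had a log2 fold change of 0.11 (SE 0.050, 95% interval -0.0020 to 0.23), and its adjusted p of 0.109 from limma missed the threshold. *Spred2*, on the plus strand of chromosome 11 from 19924375 to 20024026, had 0.133, 0.133, 0.148 and 0.128 RPKM in BAZ2A WT and 0.123, 0.145, 0.141 and 0.138 RPKM in BAZ2A ΔTAM. The groups overlapped throughout. Its log2 fold change was 0.0084 (SE 0.069, 95% interval -0.15 to 0.17, adjusted p = 0.937 from limma), and its sign turned with quantile scaling (-0.0016) and without BAZ2A WT replicate 4 (-0.017) or BAZ2A ΔTAM replicate 2 (-0.018) or 3 (-0.0075).

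*Dusp4* encodes a nuclear phosphatase of ERK and other MAP kinases, and *Dusp6* the cytoplasmic phosphatase that is selective for ERK. *Dusp4*, on the plus strand of chromosome 8 from 34807297 to 34819894, had 15, 25, 21 and 21 reads in BAZ2A WT and 14, 11, 18 and 14 in BAZ2A ΔTAM. Its RPKM were 0.0240, 0.0385, 0.0342 and 0.0323, and then 0.0246, 0.0199, 0.0268 and 0.0191. The lowest BAZ2A WT library, replicate 1, lay among the BAZ2A ΔTAM libraries. The log2 fold change of *Dusp4* was -0.37 (SE 0.12, 95% interval -0.65 to -0.092, adjusted p = 0.0412 from limma). Tested on reads with limma voom it was -0.49 and did not pass (SE 0.25, adjusted p = 0.109), and leaving out any library other than BAZ2A WT replicate 1 or BAZ2A ΔTAM replicate 3 also ended the call, with an adjusted p of up to 0.101 and a fold change between -0.40 and -0.30.

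*Dusp6*, on the plus strand of chromosome 10 from 99263231 to 99267489, had 0.345, 0.287, 0.400 and 0.332 RPKM in BAZ2A WT. In BAZ2A ΔTAM it had 0.332, 0.273, 0.216 and 0.194 RPKM, and all but replicate 1 were below the lowest BAZ2A WT library. With 63 to 83 and 48 to 64 reads per library, the means were 0.341 ± 0.0465 and 0.254 ± 0.0621 RPKM (SD, n = 4). This gave *Dusp6* a log2 fold change of -0.43 (SE 0.16, 95% interval -0.81 to -0.057), with an adjusted p of 0.0679 from limma. BAZ2A ΔTAM replicate 1 decided this call, since without it the fold change was -0.57 (adjusted p = 0.0161). Tested on reads with limma voom, *Dusp6* passed (-0.47, SE 0.16, adjusted p = 0.0226).

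The PEA3 family genes *Etv4* and *Etv5* encode close relatives that bind the same DNA letters. *Etv5* lies on the minus strand of chromosome 16 from 22381309 to 22439719. Its RPKM were 1.06, 1.04, 1.13 and 1.04 in BAZ2A WT and 0.869, 0.990, 0.944 and 0.955 in BAZ2A ΔTAM, with no overlap. With 2294 to 3239 reads per library, its log2 fold change was -0.18 (SE 0.048, 95% interval -0.29 to -0.072, adjusted p = 0.0176 from limma), and it stayed called with each library left out (adjusted p from 0.0161 to 0.0447). *Etv4*, on the minus strand of chromosome 11 from 101769742 to 101785371, had 0.587, 0.595, 0.585 and 0.588 RPKM in BAZ2A WT and 0.551, 0.609, 0.671 and 0.666 RPKM in BAZ2A ΔTAM. The BAZ2A WT values of *Etv4* were closer together than counting alone gives on average (coefficient of variation 0.69%, against 4.64% for counting), while those of BAZ2A ΔTAM spread over 8.75%, with replicate 1 below all BAZ2A WT libraries and the others above. For *Etv4* the log2 fold change was 0.079 (SE 0.062, 95% interval -0.062 to 0.22, adjusted p = 0.346 from limma), and 0.14 without BAZ2A ΔTAM replicate 1 (adjusted p = 0.0437).

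**Figure D2:**
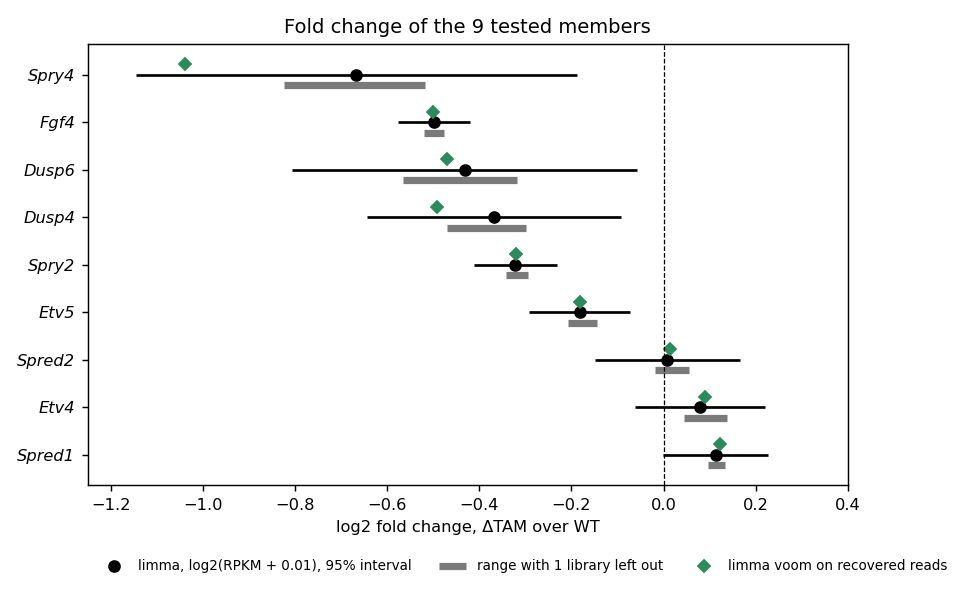
Log2 fold change of the 9 tested feedback genes, BAZ2A ΔTAM over BAZ2A WT (horizontal axis), from limma with its 95% interval (black), as the range with 1 library left out (grey) and from limma voom on recovered reads (green). The intervals of *Fgf4*, *Spry2* and *Etv5* are narrow and below 0, that of *Spry4* runs from -1.14 to -0.19, and those of *Spred2*, *Etv4* and *Spred1* include 0.

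The promoters of the 3 genes whose libraries fell without overlap are shown so that their sequence can be read beside these values. Each is the stretch of 250 bases before the RefSeq transcription start in GRCm38.p6, read 5′ to 3′ on the gene's strand, with GC boxes (GGGCGG, the core of the SP1 motif, searched on both strands) in capitals. *Fgf4* is read from chr7:144861136-144861385 on the plus strand, *Spry2* from chr14:105896820-105897069 on the minus strand and *Etv5* from chr16:22439571-22439820 on the minus strand. The RefSeq starts of *Fgf4* and *Etv5* lie inside the entries whose RPKM are given above, which begin further upstream.
Fgf4: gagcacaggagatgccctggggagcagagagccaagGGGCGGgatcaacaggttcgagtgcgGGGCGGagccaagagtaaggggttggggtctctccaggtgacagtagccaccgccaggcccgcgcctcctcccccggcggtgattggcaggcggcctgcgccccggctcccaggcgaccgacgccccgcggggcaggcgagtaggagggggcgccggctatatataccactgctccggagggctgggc
Spry2: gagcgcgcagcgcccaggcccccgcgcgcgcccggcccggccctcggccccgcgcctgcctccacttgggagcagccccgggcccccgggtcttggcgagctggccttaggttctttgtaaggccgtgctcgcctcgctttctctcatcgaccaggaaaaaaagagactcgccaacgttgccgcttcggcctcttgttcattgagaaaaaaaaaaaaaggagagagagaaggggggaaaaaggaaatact
Etv5: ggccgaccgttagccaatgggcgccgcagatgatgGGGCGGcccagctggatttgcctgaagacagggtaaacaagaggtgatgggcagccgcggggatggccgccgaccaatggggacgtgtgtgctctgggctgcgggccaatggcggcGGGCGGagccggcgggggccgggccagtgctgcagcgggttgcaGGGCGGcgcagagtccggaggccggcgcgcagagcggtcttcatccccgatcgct

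The *Fgf4* window holds 2 GC boxes, 214 and 188 bases before the start, and the *Etv5* window holds 3, at 215, 99 and 55 bases, while the *Spry2* window has none. Of 32851 windows of the same length, 32.7% hold a GC box. Among the 6 feedback genes with a RefSeq promoter entry (*Fgf4*, *Spry2*, *Spred1*, *Spred2*, *Dusp6* and *Etv5*), 4 hold one in any of their windows. The share is over windows and the count over genes, so they are not directly comparable. The letters CCGGAA (both strands), a stricter form of the GGAA core that ETS factors bind, are in 12.0% of all windows and in 0 of these 6. The shorter GGAA, which the *Spry2* window holds, was not counted. Bases G and C make up 71.2% of the *Fgf4* and *Etv5* windows and 62.4% of that of *Spry2*, against a median of 52.4% over all windows. A match to letters is no evidence of binding, and its absence says only that these letters are not in this window.

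*Egr1*, an immediate early gene whose transcript rises within minutes of ERK activation in many cells, lies on the plus strand of chromosome 18 from 34859823 to 34864984. It was barely detected, with 11, 3, 8 and 2 reads in BAZ2A WT and 7, 4, 12 and 10 in BAZ2A ΔTAM. The RPKM were 0.0429, 0.0113, 0.0318 and 0.00751, and then 0.0300, 0.0177, 0.0436 and 0.0334. The groups overlapped almost fully. *Egr1* was under the filter of 10 reads per library on average, and the difference of 0.41 in mean log2(RPKM + 0.01) had p = 0.343 in a two-sided exact permutation test over libraries (n = 4 per group, smallest possible p 0.0286). No difference was detectable at this depth.

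**Figure D3:**
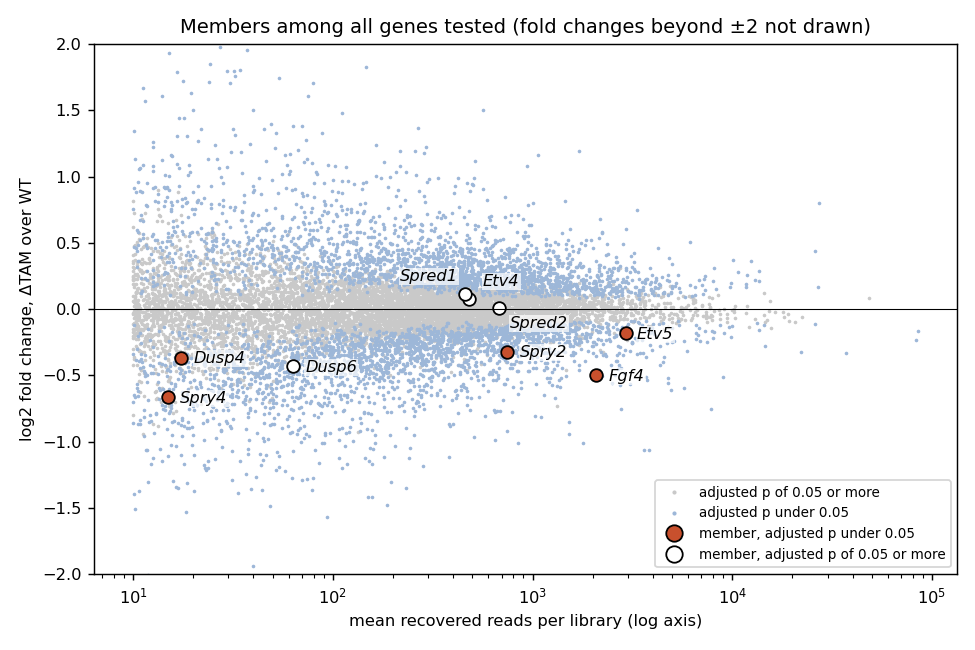
Log2 fold change of BAZ2A ΔTAM over BAZ2A WT (vertical axis) against mean recovered reads per library (log axis) for the 12661 genes tested, with the 9 tested feedback genes circled and filled in red where called. *Fgf4* lies at 2081 reads and a fold change of -0.50, whereas *Spry4* and *Dusp4*, at 14.9 and 17.4 reads, lie among widely scattered points.

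The 8 feedback genes that form paralog pairs allow each pair to be compared inside a library, where depth cancels. For each pair the difference of log2(RPKM + 0.01) was compared between lines by a two-sided exact permutation test over 70 splits, adjusted over 4 pairs. Only the shift between lines is given, since the ratio itself depends on the span of each gene. The log2 ratio of *Etv4* to *Etv5* was higher in BAZ2A ΔTAM by 0.26 (SE 0.060, exact p = 0.0286, adjusted p = 0.0571), with an SD over 4 libraries of 0.065 in BAZ2A WT and 0.10 in BAZ2A ΔTAM. The ratio of *Spred1* to *Spred2* shifted by 0.10 (SE 0.043, exact p = 0.0286, adjusted p = 0.0571), with SDs of 0.039 and 0.076. In both pairs all BAZ2A ΔTAM libraries lay above all BAZ2A WT libraries, which gives the smallest p that 4 against 4 libraries allow, and after adjustment neither passed 0.05. The ratio of *Spry2* to *Spry4* shifted by 0.34 (SE 0.28, exact p = 0.171, adjusted p = 0.229) and that of *Dusp4* to *Dusp6* by 0.063 (SE 0.24, reached or passed by 58 of the 70 splits), both within the spread between libraries. The *Spry2* to *Spry4* shift depends on the pseudocount, since it was -0.15 with 0.1 and -0.22 with 1 (adjusted p = 0.0381, exact permutation). A different response of *Spry4* from *Spry2*, or of *Dusp4* from *Dusp6*, was thus not shown at these read numbers.

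**Figure D4:**
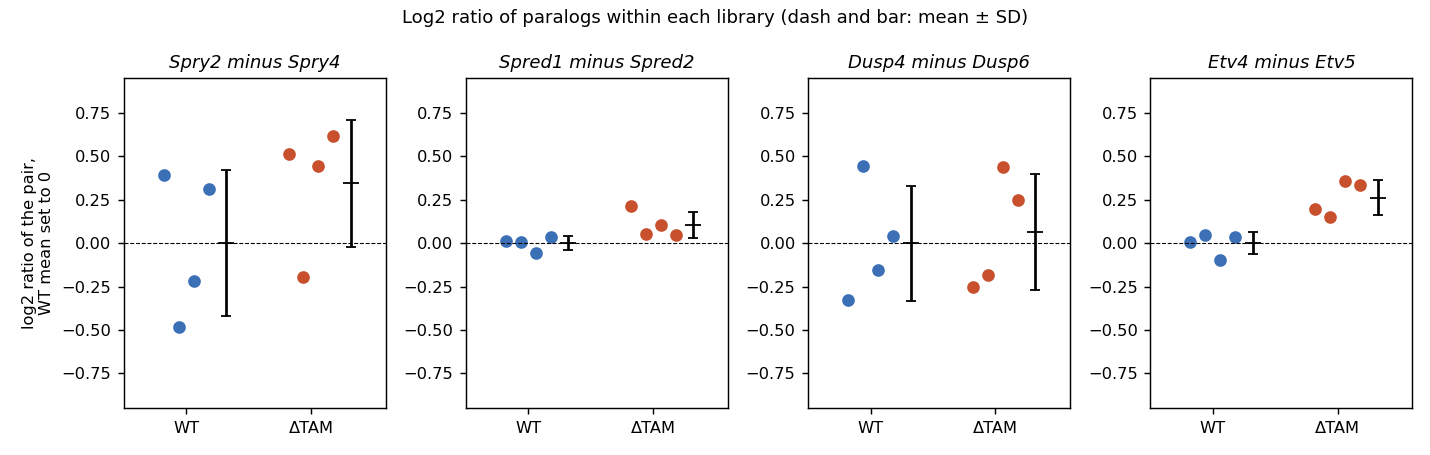
Log2 ratio of the 4 paralog pairs in each library of BAZ2A WT (blue) and BAZ2A ΔTAM (red), drawn relative to the BAZ2A WT mean, with mean ± SD. The red dots lie above all blue dots for *Etv4* minus *Etv5* and for *Spred1* minus *Spred2*, and mix with them in the other pairs, which spread far more.

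The other genes of the pathway moved in both directions. Of 75 such genes in 4 lists, 62 were tested, and 16 of them (25.8%) were higher and 10 (16.1%) lower at an adjusted p under 0.05 in the same limma fit, with a median log2 fold change of 0.031. Over all genes tested these shares were 19.3% and 19.1%. *Fgf5* (a ligand of primed cells), *Spry3* and *Egr3* had 0 reads in all libraries. Among 21 ligands, receptors and adaptors, 15 were tested, 5 were higher and 2 lower, with a median of 0.086. The adaptor gene *Grb2* rose from 0.256 ± 0.00611 to 0.332 ± 0.0264 RPKM (SD, n = 4), a log2 fold change of 0.36 (adjusted p = 0.00200), and the ligand gene *Fgf17* (0.35) and the heparan sulfate enzyme gene *Hs2st1* (0.33) rose as well. The heparan sulfate proteoglycan gene *Sdc1* fell (-0.27, adjusted p = 0.00859). The receptor gene *Fgfr4* fell by 0.53 on the log2 scale at 12 to 34 reads, a call lost without BAZ2A WT replicate 1 or 3 or BAZ2A ΔTAM replicate 1, 2 or 4 (adjusted p up to 0.0738).

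All 22 genes of the RAS-RAF-MEK-ERK cascade, its regulators and its substrates were tested, with 3 higher, 4 lower and a median of 0.030. *Rps6ka2*, which encodes a ribosomal S6 kinase activated by ERK, fell from 0.128 ± 0.00406 to 0.0709 ± 0.00350 RPKM (SD, n = 4), a log2 fold change of -0.77 (adjusted p = 3.5e-05 from limma). *Nras*, a RAS gene, fell as well (-0.30, adjusted p = 5.2e-04). *Erf*, an ETS repressor that ERK exports from the nucleus, rose by 0.43 (adjusted p = 6.0e-04), as did the serum response factor gene *Srf* (0.34, adjusted p = 0.00409) and the scaffold gene *Ksr1* (0.20, adjusted p = 0.0301). The *Ksr1* call was lost on leaving out any library but BAZ2A WT replicate 1 or BAZ2A ΔTAM replicate 2 (adjusted p up to 0.0772).

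Of 14 other feedback inhibitors, 12 were tested, 5 were higher and 2 lower, with a median of 0.064, against -0.32 for the 9 feedback genes above. The third SPRED gene, *Spred3*, rose from 0.128 ± 0.0174 to 0.174 ± 0.0143 RPKM (SD, n = 4), a log2 fold change of 0.43 (adjusted p = 0.0108). The ubiquitin ligase gene *Cbl* (0.38, adjusted p = 3.0e-04) and *Lrig1* (0.37, adjusted p = 0.00102), which encodes a membrane protein that restrains receptor tyrosine kinases, rose too. The phosphatase genes *Dusp5* (-0.40, adjusted p = 0.0108, 21 to 44 reads) and *Dusp9* (-0.24, adjusted p = 0.0219) fell. Both calls were lost without a filter (adjusted p = 0.0563 and 0.0663), and that of *Dusp9* without BAZ2A WT replicate 2 or 4 or BAZ2A ΔTAM replicate 1 or 2 (adjusted p up to 0.0570). Of 19 other ERK-responsive genes, 14 were tested, 4 were higher and 2 lower, with a median of -0.022. The AP-1 genes *Junb* (0.79, adjusted p = 0.00491, 41 to 107 reads) and *Fosl2* (0.60, adjusted p = 0.0142, 4 to 18 reads) rose beside *Srf*. The *Fosl2* value was 1.27 with voom on reads, its call ended without a filter (adjusted p = 0.0660), and it passed the filter in 6 of 8 fits with 1 library left out. *Maff* (-0.64, adjusted p = 0.00749, 8 to 26 reads) and *Ier5* (-0.21, adjusted p = 0.0191) fell. The *Ier5* call was lost without BAZ2A WT replicate 2 (adjusted p = 0.0522) and with voom on reads (adjusted p = 0.0823).

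**Figure D5:**
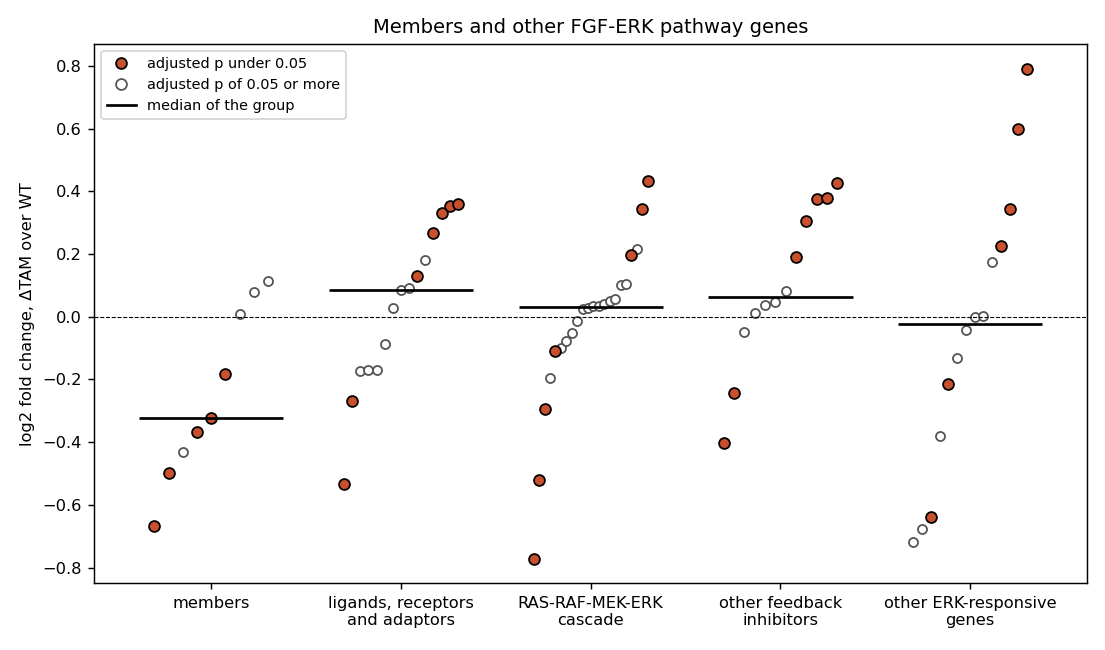
Log2 fold change of BAZ2A ΔTAM over BAZ2A WT (vertical axis) for the 9 tested feedback genes and for the 4 other lists of FGF-ERK pathway genes, filled where the adjusted p is under 0.05, with the median of each list as a bar. The median of the feedback genes is -0.32, and those of the other lists lie between -0.022 and 0.086.

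Markers of cell types moved with the lines as well. Of 8 pluripotency genes, 8 were tested, 0 were higher and 4 lower (*Tbx3*, *Sox2*, *Klf4* and *Esrrb*), against 19.3% and 19.1% of all genes tested. The other 4 were not called, with log2 fold changes of -0.058 for *Pou5f1*, 0.023 for *Nanog*, 0.0046 for *Zfp42* and -0.029 for *Tfcp2l1*. The 8 genes summed to 1543 to 1570 exon RPKM in BAZ2A WT and 1383 to 1463 in BAZ2A ΔTAM. The summed level of 5 primed epiblast genes was 13.3 to 14.2 and 20.6 to 22.5, with both tested ones, *Dnmt3b* and *Lef1*, higher and the defining marker *Fgf5* at 0. Of the untested ones, *Otx2* had 0.0101 ± 0.00246 RPKM in BAZ2A WT and 0.00196 ± 0.00153 RPKM in BAZ2A ΔTAM (SD, n = 4), without overlap at 1 to 11 reads, and *Pou3f1* had 0.0539 ± 0.0159 and 0.0473 ± 0.00945 RPKM. The summed level of 7 primitive endoderm genes was 1.37 to 1.56 and 1.88 to 2.34. Of these *Gata4* alone was tested, and it was higher at 28 to 43 reads, a call lost with voom (adjusted p = 0.0718 from limma) and in 2 of 8 fits with 1 library left out, while *Gata6*, at 2 to 10 reads, had 0.00433 ± 0.00114 and 0.00261 ± 0.00157 RPKM (SD, n = 4). Fibroblast genes summed to at most 0.436, with *Col3a1* and *Dcn* at 0. The part of these differences in the levels of *Fgf4*, *Spry2* and *Etv5* was not tested.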

How the data were processed

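RNA-seq of 8 libraries was analysed, 4 per line, grouped by their labels. Per the labels and methods, polyA RNA was sequenced, and the authors removed ribosomal reads, trimmed with Trimmomatic, aligned to mm10 with STAR, counted coverage of exons and deposited RPKM per library. The annotation release, strand handling and multimapping rule are not given in the sources used here, so values of paralogs and overlapping genes are uncertain. The methods and the labels differ on the sequencer and on the version of Trimmomatic.

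The RPKM of the authors, multiplied by gene span, were whole multiples of a step per library, 1 read, for 99.6% of values above 0 (median library, tolerance 0.05 reads), and reads were recovered from them. Of 51288 entries, 385 repeats of a symbol were set aside. The 12661 genes averaging 10 reads or more per library were tested with limma 3.58.1 in R 4.3.3 (lmFit, eBayes with trend) on log2(RPKM + 0.01), without covariates, with Benjamini-Hochberg adjustment over all, and the procedure was tested on simulated data. Fold changes on this scale understate those of low genes. Exon lengths are from GENCODE vM21 (GRCm38, the same build as mm10), which matched the symbol, chromosome and start of 91.6% of genes and gave 94.4% an exon length. Intervals cover 95%. Reads carry no molecular identifiers, so read numbers give counting error only.

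Named genes are all feedback genes, *Baz2a*, and up to 3 per direction with the largest fold change among called genes of each pathway list. An item under this rule is not reported here. Feedback genes, lists and tests were chosen with earlier results of these data known. Alternatives changed the pseudocount (0.001, 0.1, 1), the filter (absent, or a minimum of 0.1 RPKM on average), scaling (median-ratio, quantile), the model (voom on reads, eBayes without trend or robust), a replicate block and each library left out in turn.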

Additional observations from a re-analysis of the deposited data

How the results depend on the processing

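The calls of *Fgf4*, *Spry2* and *Etv5* as lower in BAZ2A ΔTAM held under every alternative tried. The 5 feedback genes called lower became 3 without a filter, with a filter of 0.1 RPKM, with that filter and a pseudocount of 0.1, and with quantile scaling, and ranged from 3 to 5 with 1 library left out. *Spry4* was lost without a filter (adjusted p = 0.126), with quantile scaling (0.0585) and with a pseudocount of 1 (0.0527), and *Dusp4* without a filter (0.174), with quantile scaling (0.0952) and with voom (0.109). Both lie under 0.1 RPKM, so that filter removes them. Leaving out the filter, also ended the calls of *Dusp5*, *Dusp9*, *Fgfr4*, *Fosl2* and *Ksr1*, and quantile scaling that of *Fgfr4* (0.0574). The feedback genes called higher ranged from 0 to 1 with 1 library left out (*Etv4*, without BAZ2A ΔTAM replicate 1). Past the fold thresholds, the 1 lower feedback gene became 0 with a pseudocount of 0.1 or 1, with a filter of 0.1 RPKM and with both, and 0 to 1 with 1 library left out (0 without BAZ2A WT replicate 2). The log2 fold change of *Spred2* turned to -0.0016 with quantile scaling and ranged from -0.018 to 0.055 with 1 library left out. The shift of *Spry2* to *Spry4* turned to -0.15 and -0.22 with pseudocounts of 0.1 and 1, and that of *Dusp4* to *Dusp6* to -0.041 with 0.001, and ranged from -0.062 to 0.21 with 1 library left out. With a pseudocount of 1, the shifts of *Spred1* to *Spred2* (0.015) and *Etv4* to *Etv5* (0.12) had an adjusted p of 0.0381, as did the reversed one of *Spry2* to *Spry4*.

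Across all genes, 2418 were lower by adjusted p, against 1441 with a filter of 0.1 RPKM and 1437 with that filter and a pseudocount of 0.1, and the other pathway genes called lower went from 10 to 6 with each. Past the fold thresholds, 426 genes were higher, against 181 and 30 with pseudocounts of 0.1 and 1, 803 without a filter, 211 with filter and pseudocount of 0.1, and 656 with voom. The 484 lower became 761, 113 and 13 with pseudocounts of 0.001, 0.1 and 1, 731 without a filter, 241 with a filter of 0.1 RPKM, 132 with both, and 839 with voom. Beyond the construction of these settings, the causes were not tested. Deviations of same-numbered libraries correlated by 0.070, 0.040, 0.052 and 0.091 across genes, and those of differently numbered ones by -0.14 to 0.094. BAZ2A WT replicates 1, 2 and 4 correlated best with the BAZ2A ΔTAM library of the same number. BAZ2A WT replicate 3 correlated best with BAZ2A ΔTAM replicate 2 (0.094). Whether same-numbered libraries share a batch is not given in the labels and was not tested. With the replicate block, 2213 genes were higher and 2196 lower, 4 feedback genes were lower (*Dusp4* had an adjusted p of 0.0708), *Ier5* (0.0543) and *Ksr1* (0.0634) also lost their calls, and the paired sign-flip tests of the paralog ratios could not go below an exact p of 0.125. Among the feedback genes, *Spry4*, *Dusp4* and *Egr1* had the fewest reads, on average under 20 per library.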
